A study of Mus musculus with 15 samples.

Results

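The neuronal pentraxins are a family of 3 synaptic proteins, encoded in the mouse by Nptx1, Nptx2 and Nptxr. They were picked by gene symbol out of 22524 genes, with the difference between the genotypes in these libraries already known. Transcripts had been counted in cortex of female C57BL/6 mice aged 18 months. The first genotype was heterozygous for Rps9 D95N, an amino acid exchange in a small-subunit ribosomal protein (7 mice, called D95N), and the second was wild-type littermates (8 mice). Each library came from 1 mouse and is named by genotype and animal number. The tissue field of the labels reads skeletal muscle while the design text names cortex. The summed level of 6 skeletal muscle genes was 5.43 to 9.88 CPM (counts of a gene relative to its library size, with scaling factors) in D95N libraries and 6.73 to 25.8 CPM in wild-type libraries, against 6488 to 6851 CPM and 6582 to 7111 CPM for 6 pan-neuronal genes.

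Pentraxins assemble into rings of like subunits. Nptx1 and Nptx2 (also called NARP) are secreted at synapses, whereas Nptxr carries a membrane anchor that can be cut, and the 3 proteins form mixed complexes. These complexes bind AMPA receptors, the main receptors for fast excitatory transmission, and help to cluster them. Nptx2 is an immediate early gene whose transcript rises with neuronal activity, and its protein gathers at excitatory synapses on parvalbumin interneurons and in the perineuronal nets around them. In GRCm38, Nptx1 (ENSMUSG00000025582) lies on the minus strand at chr11:119538719-119547753, Nptx2 (ENSMUSG00000059991) on the plus strand at chr5:144545902-144557478 and Nptxr (ENSMUSG00000022421) on the minus strand at chr15:79786351-79804766. The longest transcript of each has 5 exons. Nptxr shares 890 exon bases, 17.2% of its exons, with the protein-coding gene Npcd on the same strand, so counts of Nptxr are uncertain to the extent that reads could be assigned to either gene.

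Total counts per library were 23349381 to 34587082. They averaged 28994834 in D95N and 31533298 in wild type, a difference that did not pass a two-sided exact permutation test (p = 0.14). Among all genes, 4016 of 14989 tested (26.8%) passed edgeR's quasi-likelihood test at an adjusted p of 0.05, 2272 of them higher in D95N (15.2%) and 1744 lower (11.6%). Because the pentraxins were chosen for their difference, their own values are given as a description and without a test. D95N 42 lay inside the wild-type range for Nptx2 and under it for Nptx1, unlike the other 6 D95N libraries, so group means of the 3 pentraxins are also given without it. This choice was made after its values were seen.

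Nptx2 was the member of widest difference. It stood at 40.6 CPM in D95N 42, 214 in D95N 41, 337 in D95N 50, 426 in D95N 44, 462 in D95N 21, 503 in D95N 4 and 579 in D95N 28, against a lowest value of 28.5, a median of 40.3 and a highest of 55.9 CPM in wild-type libraries. Thus 6 of 7 D95N libraries exceeded every wild-type library, and D95N 42 fell inside the wild-type range. The means were 366 ± 186 CPM in D95N and 39.7 ± 9.36 CPM in wild type (SD, n = 7 and 8), which gave a log2 fold change of 3.20 ± 0.37 (SE), or 9.21-fold, the fifth highest of all genes tested (rank 5). Without D95N 42 the D95N mean was 420.2 ± 129 CPM (SD, n = 6). In bulk tissue a change in the number of cells that hold a transcript and a change in its amount per cell cannot be told apart.

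Nptx1 had a lowest value of 345, a median of 690 and a highest of 839 CPM in D95N libraries, against 357, 379 and 455 CPM in wild-type libraries. Again 6 of 7 D95N libraries exceeded every wild-type library, and D95N 42 was under all of them. Its log2 fold change was 0.77 ± 0.13 (SE), or 1.70-fold, from means of 657 ± 157 CPM in D95N and 386 ± 33.3 CPM in wild type (SD, n = 7 and 8). Without D95N 42 the D95N mean was 709 ± 82.0 CPM (SD, n = 6).

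Nptxr had a lowest value of 945, a median of 1212 and a highest of 1412 CPM in D95N libraries, against 916, 948 and 1082 CPM in wild-type libraries. Here 5 of 7 D95N libraries exceeded every wild-type library and 2, D95N 41 and D95N 42, lay within their range. The means were 1178 ± 159 CPM in D95N and 965 ± 57.4 CPM in wild type (SD, n = 7 and 8), which gave a log2 fold change of 0.29 ± 0.07 (SE), or 1.22-fold. Without D95N 42 the D95N mean was 1216 ± 133 CPM (SD, n = 6). The overlapping gene Npcd averaged 212 ± 30.3 CPM in D95N and 168 ± 10.9 CPM in wild type, which gave a log2 fold change of 0.33 ± 0.07 (SE).

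**Figure D1:**
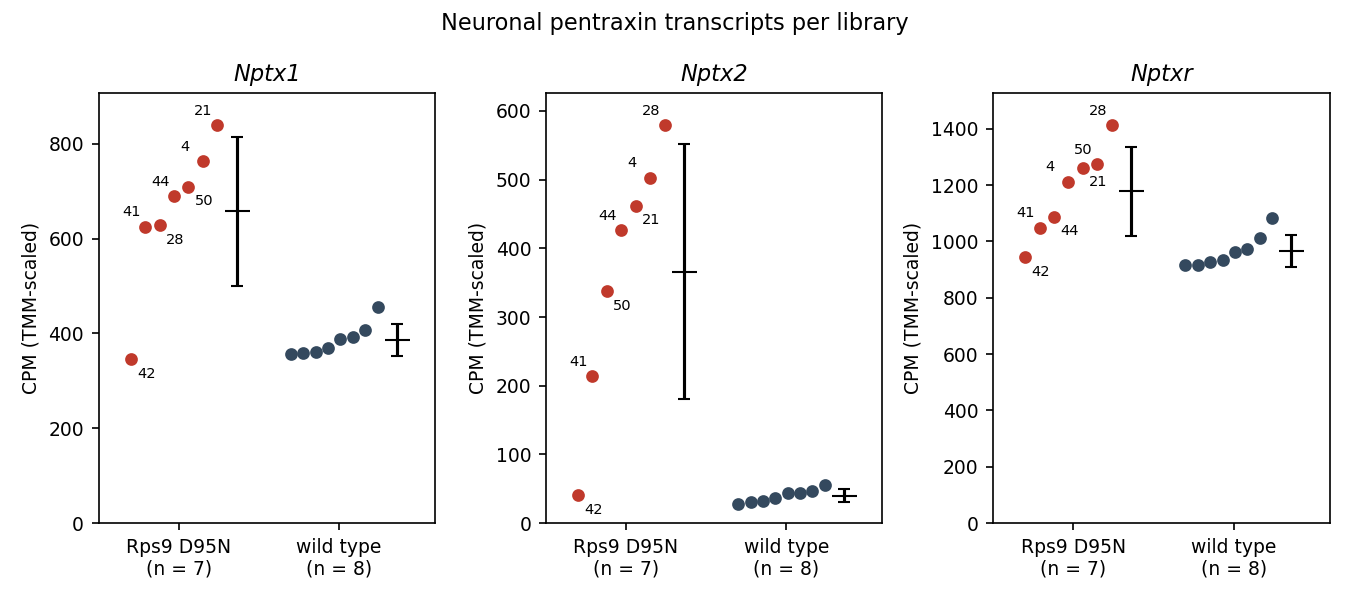
Normalised counts (CPM, linear axes from 0) of the 3 neuronal pentraxins in each of 7 D95N and 8 wild-type libraries, with animal numbers beside the D95N points and the mean ± SD as a black bar. D95N 42, at 40.6 CPM of Nptx2, lies among the wild-type libraries, while the other 6 D95N libraries reach 214 to 579 CPM.

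The 3 transcripts varied more among D95N than among wild-type libraries, as most genes did. The SD on the log2 CPM scale was larger in D95N for 83.1% of 14989 genes, and counts of any pair of D95N libraries differed by a chi-square per degree of freedom of 12.4 to 44.2, against 3.74 to 9.57 for any pair of wild-type libraries. On the log2 CPM scale the SD of Nptx2 was 1.33 among D95N libraries and 0.338 among wild-type libraries. For Nptx1 these SDs were 0.417 (D95N) and 0.120 (wild type), and for Nptxr 0.198 (D95N) and 0.0835 (wild type). D95N 42 carried most of the spread of Nptx2 and Nptx1, since without it the D95N SD was 0.515 for Nptx2, 0.164 for Nptx1 and 0.158 for Nptxr (n = 6). Without it the SD was still larger in D95N for 80.5% of all genes. The SD of Nptxr exceeded that of 63.1% of genes in D95N and of 46.1% in wild type, so that its spread was near the middle of all genes in both.

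Levels of different genes can be compared after division by exon length. Per kilobase of exon, Nptxr stood at 228 ± 30.7 CPM, Nptx2 at 144 ± 73.2 CPM and Nptx1 at 126 ± 30.02 CPM in D95N libraries (SD, n = 7). In wild-type libraries the order was Nptxr at 187 ± 11.1, Nptx1 at 74.0 ± 6.39 and Nptx2 at 15.6 ± 3.69 CPM per kilobase (SD, n = 8). Nptxr was thus the most abundant of the 3 per length in every library. Nptx2 and Nptx1 did not differ beyond their spread in D95N, where Nptx2 was above Nptx1 in 4 of 7 libraries, whereas it was above Nptx1 in 0 of 8 wild-type libraries.

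The make-up of the family differed accordingly. Nptx2 made up 26.8% ± 10.6 of the summed level per kilobase in D95N libraries and 5.63% ± 1.07 in wild-type libraries (SD, n = 7 and 8). Nptxr made up 47.7% ± 10.03 in D95N libraries and 67.6% ± 1.13 in wild-type ones, and Nptx1 made up 25.5% ± 3.11 in D95N libraries and 26.7% ± 0.506 in wild-type ones. In D95N 42 the Nptx2 share was 6.05%, within the wild-type range of 4.11% to 6.92%. Without this library the D95N shares were 30.2% ± 5.94 for Nptx2, 44.1% ± 3.86 for Nptxr and 25.6% ± 3.39 for Nptx1 (SD, n = 6). The summed level per kilobase was 498 ± 124 CPM in D95N and 276 ± 19.9 CPM in wild type.

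**Figure D2:**
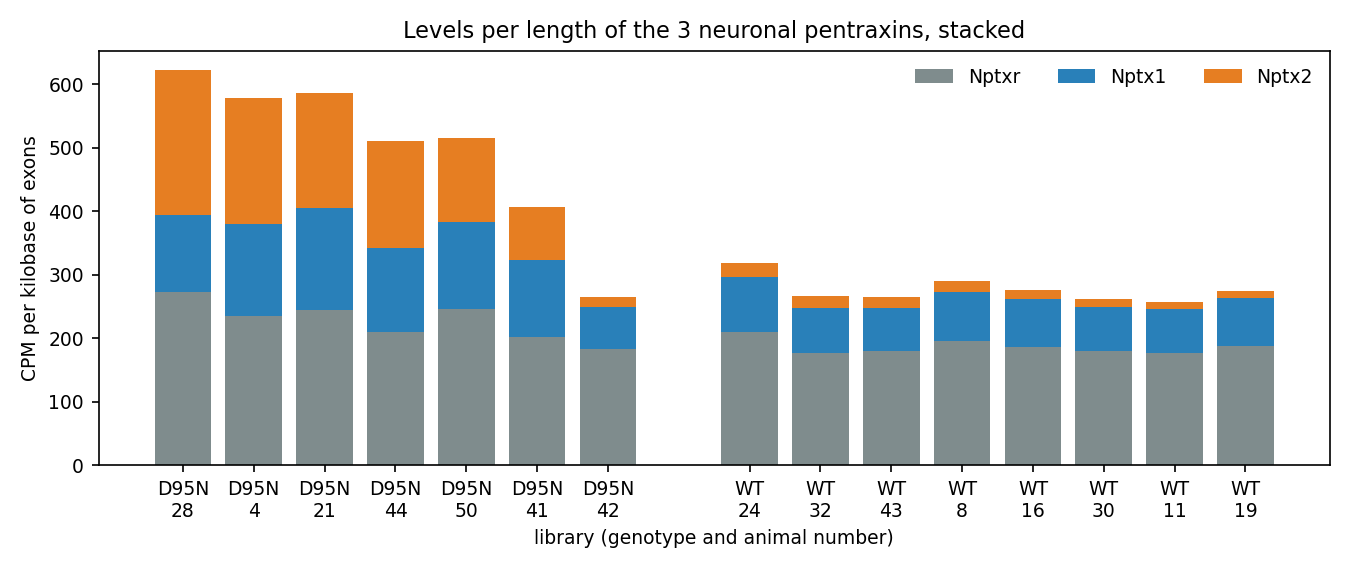
Stacked levels of Nptxr (bottom), Nptx1 (middle) and Nptx2 (top) in CPM per kilobase of exon, 1 bar per library, D95N libraries on the left and wild-type libraries on the right. The Nptx2 segment is 84.2 to 228 CPM per kilobase in 6 D95N libraries and 16.02 in D95N 42, against 11.3 to 22.0 in wild-type libraries.

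Relations of Nptx2 with the other members and with library measures were looked at within each genotype, since the genotypes form separate clusters. In all, 34 relations were computed on the log2 CPM scale. Over the 7 D95N libraries Pearson's r of Nptx2 with Nptx1 was 0.920 (exact permutation p = 0.0341, adjusted p = 0.232) and Spearman's rho was 0.571 (exact permutation p = 0.200, adjusted p = 0.453). The relation rests on 2 libraries, as r was -0.198 without D95N 41 and D95N 42. With Nptxr, r was 0.821 (exact permutation p = 0.00873, adjusted p = 0.173) and rho was 0.750 (exact permutation p = 0.0663, adjusted p = 0.322), with r = 0.393 without the same 2 libraries. Over the 8 wild-type libraries r of Nptx2 with Nptx1 was 0.576 (exact permutation p = 0.132, adjusted p = 0.342), and rho was 0.405 (exact permutation p = 0.327, adjusted p = 0.617). Library measures included total counts and the mean log2 CPM of marker genes. In D95N, rho with meningeal genes was -0.893 (exact permutation p = 0.0123, adjusted p = 0.209), with r = -0.588. In wild type, r was -0.845 with hippocampal genes (exact permutation p = 0.0102, adjusted p = 0.173). With total counts it was 0.754 there (exact permutation p = 0.0296, adjusted p = 0.232). These measures were picked after their values were seen. None of the 34 relations passed adjustment, and the difference in r between the genotypes was not tested.

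Markers of blood and of the meninges moved with genotype. All 5 blood genes were lower in D95N (edgeR, adjusted p of 0.0123 to 0.0400), beside 11.6% of all genes, with a summed level of 35.99 to 148 CPM in D95N libraries and 73.6 to 286 CPM in wild-type libraries. Of 6 meningeal genes 3 were lower in D95N, with a summed level of 42 to 77.0 CPM in D95N and 63.3 to 102 CPM in wild type. Of 7 hippocampal genes 1 was lower, with a summed level of 64.9 to 96.7 CPM in D95N and 83.3 to 107 CPM in wild type.

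With the mean log2 CPM of the blood and meningeal genes as covariates, the log2 fold change was 1.90 ± 0.74 (SE) for Nptx2, 0.25 ± 0.21 for Nptx1 and 0.04 ± 0.11 for Nptxr. With the hippocampal genes as covariate it was 2.61 ± 0.53 for Nptx2, 0.63 ± 0.19 for Nptx1 and 0.19 ± 0.10 for Nptxr. Only 5 genes in all passed edgeR's test in the fit with blood and meningeal covariates and 44 in the fit with the hippocampal covariate. These covariates differ with genotype, and the part of tissue make-up in the difference of the pentraxins was not tested.

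Markers of other regions and cell types were also counted, beside 15.2% of all genes higher and 11.6% lower. Of the striatal genes 3 of 6 were lower in D95N (summed level 492 to 1001 CPM in D95N and 592 to 874 CPM in wild type), and of the astrocyte genes 3 of 5 were lower (3813 to 4645 CPM and 4378 to 4591 CPM). Of the pan-neuronal genes 1 was higher and 2 were lower, and of the 7 excitatory cortical neuron genes 2 were higher, among them the vesicular glutamate transporter Slc17a7, and 2 lower. Of the cerebellar genes 1 of 2 tested was lower, and none of the tested oligodendrocyte (5), microglia (5), thalamus (4), choroid plexus (4) or skeletal muscle (3) genes passed edgeR's test.

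Genes that neuronal activity induces, the class to which Nptx2 belongs, were mostly higher in D95N. Of 25 such genes 16 were higher and 1, the nuclear receptor Nr4a2, was lower (edgeR, adjusted p of 0.05), beside 15.2% and 11.6% of all genes. Their median log2 fold change was 0.71, beside -0.01 over all tested genes. Leaving out single libraries left 13 to 17 higher. No member of this list passed in the fits with blood and meningeal or with hippocampal covariates.

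Secreted signals of this class were among the wider differences. Bdnf, a growth factor released by active neurons, had a lowest value of 28.5, a median of 112 and a highest of 164 CPM in D95N, against 18.9, 23.7 and 27.8 CPM in wild type. Every D95N library exceeded every wild-type library, with a log2 difference of 2.09 ± 0.27 (SE; edgeR, adjusted p = 0.000191). Inhba, a subunit of activin, had 3.48, 16.1 and 33.6 CPM in D95N, against 1.74, 2.88 and 3.69 CPM in wild type, or 2.49 ± 0.35 apart on the log2 scale (SE; edgeR, adjusted p = 0.000316). Here 6 of 7 D95N libraries lay above the wild-type range and D95N 42 within it.

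Nuclear and stress-response members are the next named genes. Egr3, a zinc finger transcription factor, had 35.4, 74.2 and 139 CPM as lowest, median and highest value in D95N, against 26.9, 32.2 and 33.5 CPM in wild type (log2 fold change 1.39 ± 0.19 SE; edgeR, adjusted p = 0.00027). Gadd45b, a regulator of DNA demethylation and stress signalling, had 11, 32.5 and 59.3 CPM in D95N, against 8.83, 9.41 and 13.1 CPM in wild type (log2 fold change 1.69 ± 0.23 SE; edgeR, adjusted p = 0.000257). D95N 42 was the lowest D95N library for all 4 of these genes.

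Other early response genes did not pass edgeR's test, or had calls that hung on single libraries. Npas4, a transcription factor induced by calcium entry, had a log2 fold change of 0.35 ± 0.49 (SE), Nr4a1 one of 0.11 ± 0.22 and Dusp1, a phosphatase, one of 0.06 ± 0.15, and none passed edgeR's test. Fos, higher by 1.43 ± 0.46 on the log2 scale (SE; edgeR, adjusted p = 0.0300), lost its call when D95N 28, D95N 4, WT 11, WT 16, WT 19, WT 30 or WT 43 was left out (edgeR, adjusted p up to 0.0925) and with limma-voom (adjusted p = 0.0820). Arc, at 0.77 ± 0.25 (SE; edgeR, adjusted p = 0.0292), lost it when one of the same libraries or WT 8 was left out (edgeR, adjusted p up to 0.0645). Nr4a2, at -0.41 ± 0.15 (SE; edgeR, adjusted p = 0.0465), lost it when D95N 21, D95N 28, D95N 4, D95N 44, D95N 50, WT 11, WT 16, WT 19, WT 30 or WT 43 was left out (edgeR, adjusted p up to 0.0981). With DESeq2, calls were kept for Fos (adjusted p = 0.0226), Arc (adjusted p = 0.0278) and Nr4a2 (adjusted p = 0.0236). With limma-voom they were kept for Arc (adjusted p = 0.0125) and Nr4a2 (adjusted p = 0.0308). The 6 genes of this comparison were picked after their values were seen.

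Within a genotype, most of these genes had a positive r with Nptx2. Pearson's r on the log2 CPM scale, given as a description of libraries that share depth and scaling, was above 0 for 19 of 25 genes over the 7 D95N libraries, with a median of 0.677, and for 22 of 25 over the 8 wild-type libraries, with a median of 0.721. It was above 0.7 for 12 genes in D95N and 15 in wild type, beside 9.56% and 3.60% of the 13819 genes of at least 1 CPM. By exact permutation, 7 of 25 genes passed an adjusted p of 0.05 in D95N and 7 in wild type. Bdnf had r of 0.93 in D95N and 0.72 in wild type, and Inhba 0.88 in D95N and 0.87 in wild type. Fos had r of 0.47 in D95N and 0.81 in wild type, Arc 0.17 and 0.85, and Nr4a1 -0.11 and 0.86. These D95N values depend on single libraries. Without D95N 41 and D95N 42, r in D95N was 0.67 for Fos and 0.36 for Nr4a1, and above 0 for 24 of 25 genes. Without WT 19 and WT 24 it was above 0 for 21 of 25 genes in wild type. The difference in r between the genotypes was not tested.

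**Figure D3:**
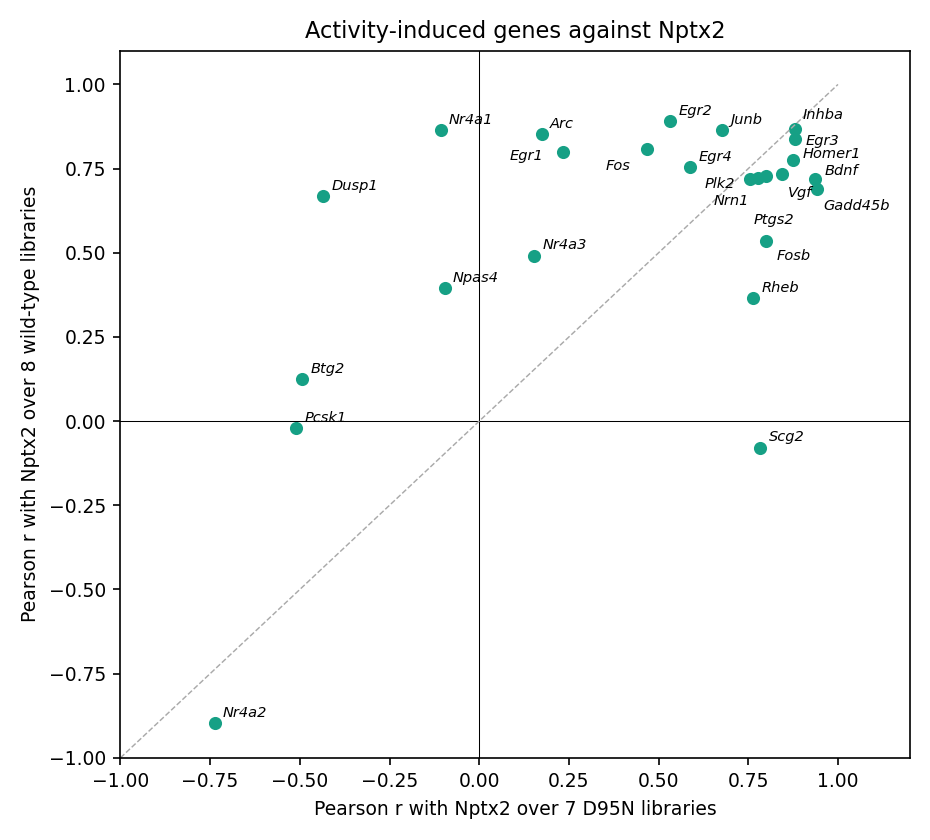
Pearson r with Nptx2 of 25 activity-induced genes, over 7 D95N libraries on the horizontal axis and over 8 wild-type libraries on the vertical axis, with the dashed line where both are equal. Inhba, Egr3 and Bdnf sit at high r on both axes, while Arc (0.17 in D95N and 0.85 in wild type) and Nr4a1 (-0.11 and 0.86) lie above the line.

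Promoter windows of these genes were read for the cyclic AMP response element, a site of the activity-regulated factor CREB. RefSeq windows (GRCm38.p6, 250 bases before to 50 after the start) were matched for 20 of the 25 genes, and Nptx1, Nptx2 and Nptxr were not analysed here. A gene counted once if any of its windows held the letters searched (32851 windows of 27025 genes). The full element TGACGTCA, searched on both strands, occurred in 5 of 20 genes, or 25% (Btg2, Dusp1, Pcsk1, Plk2 and Scg2), beside 2.03% of all 27025 genes with a window. Its shorter core TGACG, which the full element contains, occurred in 18 of 20, beside 23.05% of all. Of 7 motifs searched in the same way the other 5 gave counts nearer to or under those of all genes. The AP-1 site TGANTCA was in 1 of 20 genes (8.97% of all) and the EGR site GCGTGGGCG in 0 of 20 (0.707%). The E-box CANNTG was in 14 of 20 (74.99%), the CArG box in 1 of 20 (1.81%) and the TATA box TATAAA in 5 of 20 (15.7%). Among 8 matched genes of the 10 whose levels were most like Nptx2, the full element was in 0 and the core in 3. The windows of Scg2 (secretogranin II, a neuropeptide precursor) on the minus strand at chr1:79439977-79440276 and Pcsk1 (a prohormone convertase) on the plus strand at chr13:75089607-75089906 are shown because both genes serve secretion and hold the element, in capitals, yet differ in response.
Scg2: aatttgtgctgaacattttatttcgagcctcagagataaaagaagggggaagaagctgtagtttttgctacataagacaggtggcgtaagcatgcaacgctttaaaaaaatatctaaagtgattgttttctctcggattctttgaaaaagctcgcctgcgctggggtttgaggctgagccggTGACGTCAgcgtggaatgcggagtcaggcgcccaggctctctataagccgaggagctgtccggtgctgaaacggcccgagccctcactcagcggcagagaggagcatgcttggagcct
Pcsk1: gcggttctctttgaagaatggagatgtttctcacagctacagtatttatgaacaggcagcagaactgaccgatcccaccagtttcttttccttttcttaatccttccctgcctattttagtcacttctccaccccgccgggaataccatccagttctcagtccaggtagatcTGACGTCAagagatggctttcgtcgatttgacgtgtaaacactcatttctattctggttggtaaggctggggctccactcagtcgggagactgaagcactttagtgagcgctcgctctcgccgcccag
The element began 68 bases before the start in Scg2 and 78 bases before it in Pcsk1. Scg2 averaged 495 ± 125 CPM in D95N and 321 ± 34.4 CPM in wild type (SD, n = 7 and 8), or 0.63 ± 0.13 apart on the log2 scale (SE; edgeR, adjusted p = 0.00245). Pcsk1 averaged 26.3 ± 3.38 CPM in D95N and 27.8 ± 1.55 CPM in wild type, or -0.08 ± 0.07 apart on the log2 scale (SE; edgeR, adjusted p = 0.384). Btg2, Dusp1 and Plk2, which also hold the element, did not pass either (edgeR, adjusted p = 0.885, 0.790 and 0.104). Scg2 was thus the only gene with the full element that passed, while 17 of 25 genes did in the whole list. A match of letters is a description and does not show binding.

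AMPA receptor subunits, the partners of the pentraxins, were slightly lower in D95N. Of 4 subunit genes 3 passed edgeR's test, beside 11.6% of all genes lower. Gria3 had a lowest value of 191, a median of 227 and a highest of 241 CPM in D95N, against 245, 256 and 269 CPM in wild type, so that no D95N library reached the lowest wild-type one. The log2 difference was -0.23 ± 0.05 (SE; edgeR, adjusted p = 0.00264). Gria2 differed by -0.21 ± 0.06 on the log2 scale (SE; edgeR, adjusted p = 0.00929) and Gria4 by -0.22 ± 0.06 (SE; edgeR, adjusted p = 0.0113). Gria1, at 485 ± 24.7 CPM in D95N and 521 ± 26.5 CPM in wild type, did not pass (edgeR, adjusted p = 0.0606).

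Auxiliary proteins that sit in the AMPA receptor complex came next. Of 12, none was higher and 3 were lower, beside 15.2% and 11.6% of all genes, with a median log2 fold change of -0.03. Shisa9 (log2 fold change -0.28 ± 0.05 SE; edgeR, adjusted p = 0.00156) and Shisa7 (-0.20 ± 0.04 SE; edgeR, adjusted p = 0.00276) fell, as did Cacng5 (-0.24 ± 0.08 SE; edgeR, adjusted p = 0.0271), which lost its call without D95N 21 (edgeR, adjusted p = 0.0603) or D95N 44 (edgeR, adjusted p = 0.0583). Without D95N 28, 5 were lower and 1 (Gsg1l) was higher, and 1 was higher without D95N 42 or WT 24 and 2 without D95N 41.

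Of 11 genes linked to cleavage, release or binding of pentraxins, none was higher and 1 was lower, which is near the 11.6% of all genes that were lower. This was Grm5, the metabotropic glutamate receptor mGluR5, at 201 ± 20.3 CPM in D95N and 254 ± 14.5 CPM in wild type (log2 fold change -0.34 ± 0.06 SE; edgeR, adjusted p = 0.00064). Without D95N 41 or without D95N 42, 2 were lower. The protease Adam17, known to cleave Nptxr, had a log2 fold change of -0.07 ± 0.06 (SE) and C1qa, a subunit of the complement protein C1q that binds pentraxins, one of -0.01 ± 0.10, and neither passed. The other pentraxins were near the floor, with a summed level of Crp, Apcs, Ptx3 and Ptx4 of 0.360 to 2.50 CPM in D95N and 0.327 to 0.774 CPM in wild type, and none entered the test.

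Secreted and adhesive organisers of synapses mostly fell. Of 18 genes 10 were lower and 3 higher in D95N, with 8 to 10 lower and 2 to 4 higher when single libraries were left out. Among all genes 11.6% were lower and 15.2% higher, so the count of higher genes was near that of all genes. Nrxn2, a presynaptic adhesion molecule, was higher, with 455, 518 and 593 CPM as lowest, median and highest value in D95N, against 417, 446 and 455 CPM in wild type (log2 fold change 0.23 ± 0.04 SE; edgeR, adjusted p = 0.00161). C1ql3, a secreted C1q-like protein, was higher (log2 fold change 0.49 ± 0.11 SE; edgeR, adjusted p = 0.00379), while its receptor Adgrb3 was lower (-0.24 ± 0.05 SE; edgeR, adjusted p = 0.00212). Grid1, a glutamate receptor-like organiser, was also lower (-0.27 ± 0.05 SE; edgeR, adjusted p = 0.00212).

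Perineuronal net genes that passed the test were all higher. Of 8, 4 were higher and none was lower, beside 15.2% and 11.6% of all genes, while 1 (Ptprz1) was lower without D95N 4 or D95N 41. Acan, the core proteoglycan aggrecan, had 8.43, 10.4 and 14.0 CPM as lowest, median and highest value in D95N, against 5.18, 5.56 and 7.19 CPM in wild type, with no overlap (log2 fold change 0.87 ± 0.10 SE; edgeR, adjusted p = 0.000113). Hapln4, a link protein of the net, had 132, 209 and 268 CPM in D95N, against 113, 120 and 131 CPM in wild type (log2 fold change 0.71 ± 0.11 SE; edgeR, adjusted p = 0.000428). Ncan (0.42 ± 0.08 SE; edgeR, adjusted p = 0.00118) and Vcan (0.32 ± 0.09 SE; edgeR, adjusted p = 0.0156), related proteoglycans, were higher too. Acan was the 1 gene of all pathway lists that passed in the fit with the hippocampal covariate (edgeR, adjusted p = 0.0355), and none passed in that with blood and meningeal covariates.

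Of 9 genes listed for parvalbumin interneurons 2 were higher and 1 lower, beside 15.2% and 11.6% of all genes. The count of lower genes was thus near that of all genes. The 2 higher genes, Gad1 and Gad2, are not particular to these interneurons. Apart from Gad1, Gad2 and Erbb4, no gene of the list passed edgeR's test. Pvalb itself stood at 58.9 ± 8.18 CPM in D95N and 58.8 ± 10.4 CPM in wild type (SD, n = 7 and 8), which gave a log2 fold change of 0.00 ± 0.10 (SE). Gad2, an enzyme of GABA synthesis, was higher (log2 fold change 0.47 ± 0.13 SE; edgeR, adjusted p = 0.0133), and Erbb4, a neuregulin receptor, was lower (-0.25 ± 0.06 SE; edgeR, adjusted p = 0.0048). Gad1 was higher (0.21 ± 0.07 SE; edgeR, adjusted p = 0.0449), a call lost when D95N 21, D95N 28, D95N 4, D95N 44, D95N 50 or any wild-type library except WT 8 was left out (edgeR, adjusted p up to 0.100), and lost with library totals or upper-quartile factors. Without D95N 41, 2 genes of the list were lower, and without D95N 42, 3 were.

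**Figure D4:**
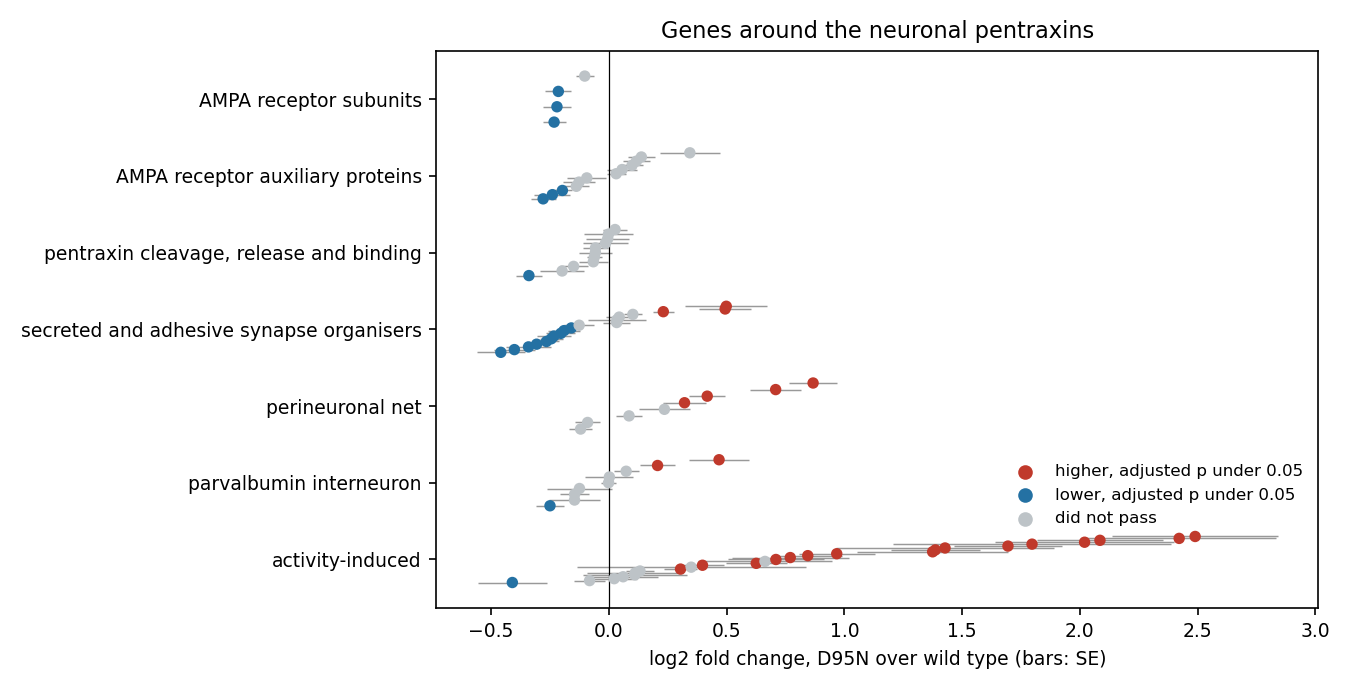
Log2 fold change, D95N over wild type, of each tested gene in 7 lists around the neuronal pentraxins, with SE bars, higher genes in red, lower genes in blue and those that did not pass edgeR's test in grey. AMPA receptor subunits lie at -0.23 to -0.10, while activity-induced genes reach 2.49.

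The genes whose pattern was most like that of Nptx2 were ranked by Pearson's r on the log2 CPM scale over the 7 D95N libraries, among 13819 genes whose mean reached 1 CPM. The 10 highest were Cap1, Cutc, C1ql3, Car7, Sertad1, Ykt6, Cyb5r3, Pcdh8, Sec61a1 and Snu13, with r of 0.970 to 0.989. The 5 lowest were Cdh20, Zfp141, Med12l, Arap2 and Cp, with r of -0.998 to -0.978. High values were not particular to these genes over 7 libraries, of which 1 lies far from the rest. At a looser cut, 187 of the 13819 genes had r above 0.9 and 128 had r below -0.9. Without D95N 42 these counts were 113 and 113. The ranking was unstable, since only 1 of the 10 highest stayed among the 10 highest without D95N 42 and 1 with Spearman's rho.

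The same genes were then looked at in wild type. Over the 8 wild-type libraries r with Nptx2 was 0.91 for Sertad1, 0.805 for Sec61a1 and 0.602 for Cap1, but 0.223 for C1ql3, -0.193 for Cyb5r3 and -0.350 for Cutc. Of the 50 genes of highest r in D95N, 38 had a positive r in wild type, beside 6714 of 13819 genes. Of these 50 genes 44 were higher and none was lower in D95N (edgeR, adjusted p of 0.05), beside 2192 higher and 1683 lower of 13819 genes. Because D95N 42 lies at the wild-type level of Nptx2, the ranking itself favours genes that are higher in the other 6 D95N libraries, and nothing is read from this count.

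Levels of some of these genes show the pattern. Sertad1, a transcriptional co-regulator, had 6.44, 22.2 and 31.5 CPM as lowest, median and highest value in D95N, against 5.20, 6.22 and 8.14 CPM in wild type. Pcdh8, a protocadherin of the synapse, had 44.3, 141 and 210 CPM in D95N, against 41.2, 47.1 and 59.9 CPM in wild type. Cap1, a regulator of actin filaments, had 231, 336 and 360 CPM in D95N, against 239, 246 and 273 CPM in wild type. In each the lowest D95N value belonged to D95N 42, and the other 6 D95N libraries lay above the wild-type range.

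Some genes varied with Nptx2 in both genotypes. At a threshold of r = 0.8, chosen after the values were seen, 685 of 13819 genes passed in D95N and 176 in wild type. In both, 39 passed, which is 5.69% of those in D95N and 22.2% of those in wild type. The 5.69% stands beside 1.27% of all 13819 genes that passed in wild type. The 22.2% stands beside the 685 of 13819 that passed in D95N. The 39 genes included Sertad1, the transcription factors Klf10 and Egr3, Inhba, the actin cross-linker Actn1 and the Nogo receptor relative Rtn4rl2.

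For Nptx1 the 5 genes of highest r over the D95N libraries were Sec61a2, Plekha2, Igsf9, Rab36 and Htra4, with r of 0.989 to 0.995. For Nptxr they were Arf1, Fkbp1a, Tbc1d10b, Agap2 and Eif3l, with r of 0.973 to 0.989. Of the 50 genes of highest r among 13819, Nptx1 and Nptx2 shared 5, and Nptxr and Nptx2 shared 0. Unrelated lists this short, out of so many genes, would share almost none. The 10 genes of highest r with Nptx2 had r of 0.832 to 0.940 with Nptx1 and 0.778 to 0.872 with Nptxr in D95N. The lack of shared genes therefore does not show that Nptxr and Nptx2 had unlike patterns. The wild-type r with Nptx1 was -0.842 for Rab36, the opposite sign to that in D95N.

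**Figure D5:**
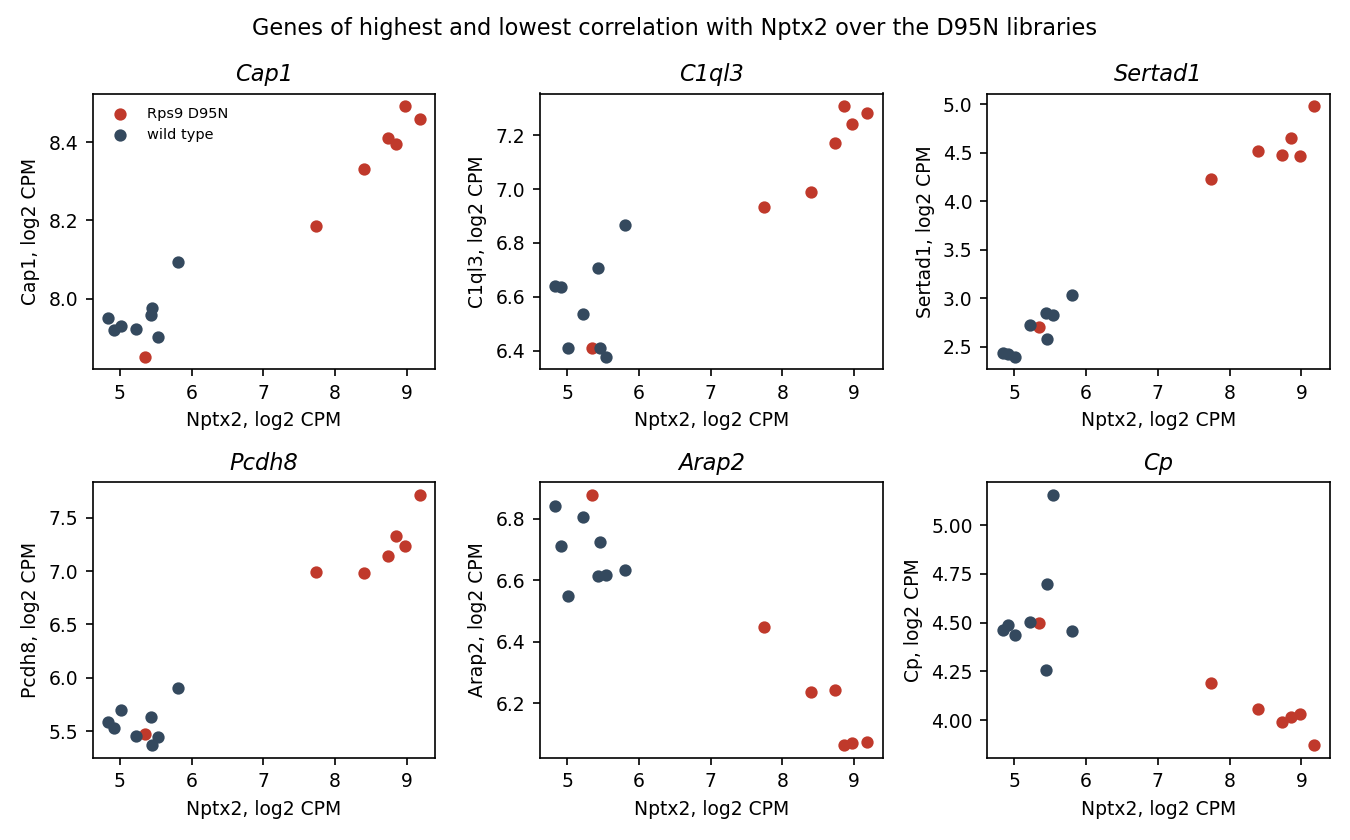
Log2 CPM of 4 genes of highest and 2 of lowest r with Nptx2 over the D95N libraries, plotted against log2 CPM of Nptx2, with 1 point per library (D95N red, wild type dark blue). In each panel 1 D95N library, D95N 42, lies at the wild-type end of the Nptx2 axis.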

How the data were processed

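RNA of 15 frozen samples was sequenced, 7 from D95N and 8 from wild-type mice. The deposited values are raw counts per gene, made by the authors with STAR and featureCounts on GRCm38, per the submitters' processing notes. Their versions, annotation, strand setting and handling of multiply mapped reads are, for this study, not given in the sources used. Of 22524 identifiers 22214 matched GENCODE M21, which gave names, coordinates and exon lengths.

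Groups came from the genotype labels, and no batch is labelled. Counts were tested with edgeR 4.0.16 in R 4.3.3, with TMM factors, the default expression filter, the quasi-likelihood test and Benjamini-Hochberg adjustment over 14989 genes at 0.05. CPM were derived from the deposited counts after TMM scaling, and log2 CPM used a prior count of 2. SE is the size of the log2 difference over the root of the F statistic. Correlations used exact permutation of libraries in Python 3.11.15. No 2 libraries of 1 genotype agreed within counting noise, the lowest chi-square per degree of freedom of 49 pairs being 3.74.

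The members, the gene lists and the naming rule were chosen with earlier results of these data known. The rule takes the 3 pentraxins, up to 4 called members of each pathway list ordered by p (2 by mean level where none was called), the 10 genes of highest and 5 of lowest r with Nptx2 in D95N, and 5 each for Nptx1 and Nptxr. Not every gene it takes is printed, 1 named gene is not reported here, and genes of the promoter comparison and single genes of other lists and comparisons were named outside it after their values were seen (Actn1, Adam17, Arc, C1qa, Dusp1, Fos, Gria1, Gsg1l, Klf10, Npas4, Nr4a1, Nr4a2, Ptprz1, Pvalb, Rtn4rl2 and Slc17a7). The overlapping gene Npcd was named for its position. The edgeR test was tested on simulated data of 14938 genes with 200 changed, for D95N against wild type, and made 13 false calls. It found 50% of the genes simulated with a 1.2-fold change, 78% with a 1.5-fold change and 96% with a 2-fold or a 3-fold change. How edgeR's test fares under the wider spread of the D95N libraries was not tested. Alternatives were other scalings, DESeq2 1.42.0, limma-voom (limma 3.58.1), other filters, covariates and each library left out.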

Additional observations from a re-analysis of the deposited data

Results flagged for a closer look

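Values of 58 measures (CPM of the named genes, the pentraxin shares and sums, total counts and mitochondrial share) were screened in each genotype for a library whose gap to its nearest neighbour was large against the range of its group. Of 116 such groups of values 18 stood out, where chance gives about 5% or 5.8. The groups share libraries and are not independent.

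In D95N 42, 6 genes stood out. Arap2 was at 118 CPM (others 66.8 to 87.2), Cdh20 at 25.1 CPM (16.1 to 19.3) and Zfp141 at 14.9 CPM (8.93 to 11.2), above the other D95N libraries. Car7 was at 11.9 CPM (16.9 to 19.7), Cutc at 5.29 CPM (6.78 to 7.61) and the perineuronal net gene Ncan at 198 CPM (268 to 313), below them. All but Ncan were picked by their r with Nptx2 over libraries that include D95N 42. In D95N 50 the pentraxin Ptx3 was at 2.46 CPM, against 0.0711 to 0.411 CPM in the other D95N libraries.

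Among wild-type libraries, WT 32 stood out for Adgrb3 at 102 CPM, Gria2 at 724 CPM, Cp at 35.6 CPM and a mitochondrial share of 4.30%, and WT 24 for Cap1 at 273 CPM and Gadd45b at 13.1 CPM. WT 30 stood out for Gad2 at 399 CPM and Grid1 at 89.6 CPM. WT 19 did for Gria4 at 135 CPM, WT 11 for Nrxn2 at 417 CPM and WT 16 for Snu13 at 5.65 CPM.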

How the results depend on the processing

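The fold changes of Nptx1, Nptx2 and Nptxr kept their direction under every alternative run, with log2 values of 0.70 to 0.88, 3.06 to 3.40 and 0.24 to 0.33 when single libraries were left out. Calls then numbered 3263 to 4976 in all, 1952 to 2694 higher and 1305 to 2282 lower. The pathway lists together held 25 genes higher and 19 lower (20 to 29 and 15 to 23 without single libraries). The split of 2272 higher and 1744 lower became 1808 and 2536 with library totals and 1926 and 2351 with upper-quartile factors. With blood and meningeal scores as covariates 3 genes were higher and 2 lower, 5 in all, with 0 higher and 0 lower in the lists and log2 fold changes of 1.90 for Nptx2, 0.25 for Nptx1 and 0.040 for Nptxr. With the hippocampal score 30 were higher and 14 lower, 44 in all, with 1 higher and 0 lower in the lists. The cause was not tested. Signs reversed for Snu13 with library totals (-0.0025), with the hippocampal score (-0.044) and without D95N replicate 28 (-0.014, the low end of a range to 0.11 without single libraries). With blood and meningeal scores they reversed for Snu13 (-0.33), Cutc (-0.016), Cyb5r3 (-0.0032), Zfp141 (0.063), Med12l (0.10), Arap2 (0.028), Arf1 (-0.044), Fkbp1a (-0.058), Agap2 (-0.062), Eif3l (-0.026) and Gad1 (-0.084). Of the 10 genes of highest r with Nptx2, 2 were kept with residuals of all 15 libraries and 8 with library totals. The wild-type mice were littermates, but the labels give no litter, so no analysis paired by litter was possible. With 7 and 8 libraries, correlations within a genotype rest on few points.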
